A study of Rattus norvegicus with 4 samples.

Results

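Stiff and soft extracellular matrix were compared in rat microvascular cells while A83-01 was present on both. A83-01 is a small molecule that blocks the kinase activity of the type I receptors for TGF-beta, activin and nodal. The comparison set 1 library, wild-type cells on stiff matrix with A83-01, against 1 library, wild-type cells on soft matrix with A83-01. The cells were primary vascular cells isolated as microvessels from subcutaneous soft connective tissue of the rat. Genes entered when they reached 1 CPM (a gene's counts per 1000000 counts of its library, after scaling for library size and composition) in either library, which left 13356 of the 23608 entries in the count table. Of these, 12472 carried a gene symbol, 776 were assembled transcripts without a gene name and 108 had an Ensembl identifier. A second pair, stiff and soft matrix without A83-01, again 1 library each, gives the stiffness ratio in the absence of the inhibitor. The study's stated interest was in how stiffness and the inhibitor act on microvessels and on the step from pericyte to myofibroblast. The labels give no stiffness value, inhibitor dose, treatment time, animal number or pooling.

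TGF-beta binds a type II receptor that recruits and phosphorylates a type I receptor kinase, which in turn phosphorylates SMAD2 and SMAD3. These enter the nucleus with SMAD4 and raise genes for matrix proteins, crosslinkers and smooth muscle actin. Cells also read the stiffness of their matrix through integrins, focal adhesions and actin tension, which act on genes through SRF with its MRTF coactivators and through YAP and TAZ with TEAD factors. Pericytes, the mural cells of capillaries, can take on a contractile and matrix-producing state, and both routes are known to feed into it.

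The libraries held 32271844 counts (soft with A83-01) and 33416200 counts (stiff with A83-01). A ratio therefore compares these 2 libraries, not the conditions, and has no replicate check. Where a fold is followed by a range, that range is the 95% interval that the counts allow (exact, Clopper-Pearson). These intervals cover counting error only. Folds were computed with 2 counts added, so for low genes they are smaller than the CPM would give. No molecular identifiers are named, so PCR copies were counted as reads. Sample names follow 1 pattern for the soft and another for the stiff libraries. Whether these were also prepared apart is not stated, and such a difference cannot be told apart from stiffness. Mitochondrially encoded transcripts took 6.35% of counts on soft and 5.59% on stiff matrix with A83-01, and Col1a1 alone took 1.82% and 2.04%. In bulk RNA, fewer cells of a type and less RNA per cell cannot be told apart.

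With A83-01 on both sides, a 2-fold higher level on stiff matrix was passed by 913 genes, 6.84% of the genes compared, and a 2-fold lower level by 879, or 6.58%. At 4-fold, 251 genes (1.88%) were higher and 266 (1.99%) lower. The 2-fold shares, 6.84% and 6.58%, are the background for each list count with A83-01 below. The median log2 ratio was 0.01, and 73.1% of the genes lay within 1.5-fold of equal levels. Genes under 10 CPM on average made up 4290 of the 13356, and 11.6% of them were past 2-fold higher and 12.1% lower. Of the 1666 genes at 100 CPM or more, 75 were higher and 99 lower. The upper bound of the counting interval stood at a median of 1.72 times the lower bound in the lowest class and 1.08 times in the highest, so low genes carry wider error.

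**Figure D1:**
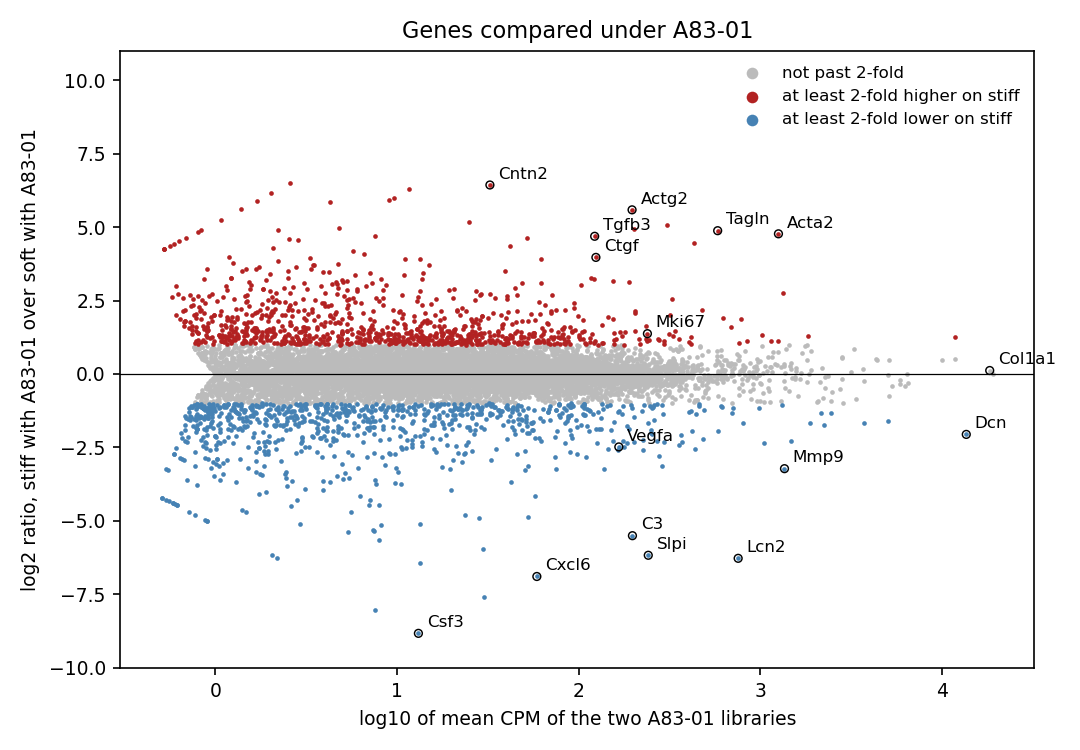
Each point is 1 of the 13356 genes, with the log10 of its mean CPM over both A83-01 libraries on the x axis and its log2 ratio of stiff to soft on the y axis. The 913 genes at least 2-fold higher are red and the 879 lower are blue, and smooth muscle genes such as Acta2 and Tagln lie far above 0 at high expression while Lcn2, Slpi and C3 lie far below.

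The contractile apparatus was the list with the highest median. Of its 19 genes, 14 were higher on stiff matrix with A83-01 by 2-fold or more, against 6.84% of all genes compared, and 1 was lower. The list's median log2 ratio was 3.11, and 13 of the 14 were past 4-fold. Acta2, the smooth muscle actin that marks myofibroblasts, stood at 88.9 CPM on soft and 2428 CPM on stiff matrix with A83-01, and at 271 and 3691 CPM without it. Both stiff libraries were above both soft libraries, and each A83-01 library was below its counterpart without the inhibitor. It was 27.3-fold higher (26.3 to 28.3) on stiff matrix with A83-01, and 13.6-fold higher (13.3 to 13.9) without it. Tagln, an actin-binding protein of smooth muscle, stood at 38.3 CPM on soft and 1126 CPM on stiff matrix with A83-01, and at 130.0 and 2101 CPM without it. Cnn1, calponin, was found at 1.28 CPM on soft and 48.3 CPM on stiff matrix with A83-01, and at 7.47 and 149.8 CPM without it, a ratio of 36-fold with the inhibitor and 19.9-fold without. For these 3 genes the levels with A83-01 were lower than those without on both matrices. Beside them, 6 of 15 pericyte and mural markers were higher and 2 lower with A83-01, with a median log2 ratio of 0.87. Their sum was 6233 CPM on soft and 6392 CPM on stiff matrix, of which Anpep, a lower member, made up 3507 and 1386 CPM. Their part in the contractile ratios was not tested.

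Myh11, the heavy chain of smooth muscle myosin, had nearly the same level in the soft library with and without A83-01. It stood at 17.7 CPM on soft and 597 CPM on stiff matrix with A83-01, and at 17 and 718 CPM without it. Actg2, the enteric smooth muscle actin, was 48-fold higher (42.9 to 54.8) with A83-01 (7.97 to 385 CPM). Lmod1, which nucleates actin filaments in smooth muscle, was 24.7-fold higher (21 to 29.97), and the regulatory light chain Myl9 was 21.7-fold higher (20.6 to 23). Mylk, the kinase that activates that light chain, was 8.93-fold higher, and the tropomyosins Tpm2 and Tpm1 were 8.68-fold higher and 4.49-fold higher. Myocd, the SRF coactivator of smooth muscle genes, was low in both libraries and higher on stiff matrix (0.507 to 4.26 CPM, 7.65-fold higher, 5.08 to 14.8). Srf itself (90.6 to 129 CPM, 1.42-fold higher), caldesmon Cald1 (1.39-fold higher) and smoothelin Smtn (1.37-fold higher) did not reach 2-fold. The lower member was Actc1, the cardiac actin (2.24 to 0.701 CPM, 3.02-fold lower, 2.01 to 5.24).

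**Figure D2:**
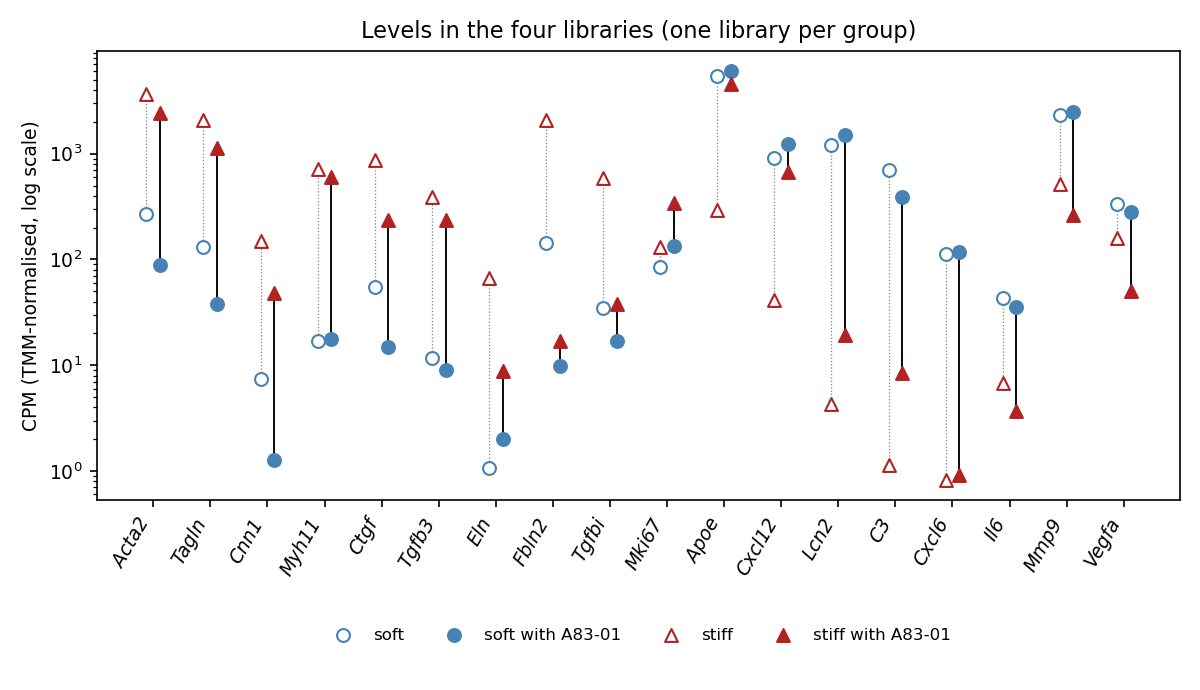
CPM on a log scale in each of the 4 libraries for 18 genes, with filled symbols for A83-01, open symbols for none, circles for soft and triangles for stiff matrix, 1 library per symbol. Acta2 goes from 88.9 to 2428 CPM and Lcn2 from 1491 to 19.2 CPM between the A83-01 libraries, while Fbln2 and Tgfbi reach high levels in the stiff library without the inhibitor.

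A CArG box, the binding sequence of SRF, was sought on both strands in the 250 bases before the start of each gene. The pattern was strict, CCWWWWWWGG with W for A or T, so sites that depart from it were not counted. Promoters came from the RefSeq table, build GRCr8, which held 14 of the 19 contractile genes. A match lay in 2 of the 14 (14.3%), against 1.5% of all 27457 promoters. The matches were in Srf and Acta1, neither of which was past 2-fold with A83-01. No match to this strict pattern lay in the window of Acta2, Actg2 or Cnn1, which does not exclude a variant site there.

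Integrins and their cytoplasmic linkers carry the pull of the matrix to actin. Of 29 focal adhesion genes, 12 were higher by 2-fold or more and 1 lower, with a median of 0.79. The integrin alpha chains led. Itga11, a collagen receptor of fibroblasts, stood at 7.67 CPM on soft and 49.5 CPM on stiff matrix with A83-01, and at 81.1 and 648 CPM without it. Its ratio was close with and without the inhibitor (6.41-fold and 7.99-fold), while both A83-01 levels were well below their counterparts. Itga8, a receptor of mesenchymal cells, was 5.74-fold higher (5.07 to 6.6), the laminin receptor chain Itga6 was 3.61-fold higher (3.42 to 3.83) and the other laminin receptor chain Itga7 was 2.84-fold higher (2.67 to 3.04). Itga2, a collagen receptor, was the lower member (9.04 to 3.34 CPM, 2.68-fold lower, 2.18 to 3.38). Among the linkers, vinculin Vcl was 4.03-fold higher (3.89 to 4.16) and alpha-actinin Actn1 was 2.79-fold higher (2.71 to 2.87), while zyxin Zyx stood at 286 CPM on soft and 267 CPM on stiff matrix. Caveolin, Cav1, was 2.16-fold higher (2.12 to 2.2) with A83-01 and 1.14-fold higher (1.12 to 1.17) without.

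Targets and regulators of YAP and TAZ differed less as a group. Of 22 genes, 2 were at least 2-fold higher, Ctgf and Ajuba, and 0 lower, where 6.84% and 6.58% of all genes compared were. Of the 22, 16 lay above equal levels, and the median was 0.47. Without A83-01, 6 were at least 2-fold higher and 1 lower, with a median of 0.25, where 4.71% and 8.23% of all genes were. Ctgf, a secreted matricellular protein that TGF-beta also induces, stood at 14.9 CPM on soft and 234 CPM on stiff matrix with A83-01, and at 55.4 and 879 CPM without it. It was 15.6-fold higher (14.3 to 17.2) on stiff matrix with A83-01 and 15.9-fold higher (15.1 to 16.6) without it, while the inhibitor libraries held lower levels on either matrix. Ajuba, a LIM protein that restrains the Hippo kinases, was 3.79-fold higher (3.46 to 4.17). Cyr61, the matricellular relative of Ctgf (349 to 417 CPM, 1.19-fold higher), and Ankrd1, a common YAP reporter (1.28 to 2.58 CPM, 1.97-fold higher, 1.39 to 2.96), did not reach 2-fold.

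The letters GGAATG, recognised by TEAD factors, were sought on both strands in the same windows. They occurred in 6 of the 15 promoters found for the list (40%), against 11.8% of all promoters. Those of Ctgf, Cyr61, Amotl2, Ajuba, Ptpn14 and Nuak2 held a match. The Ctgf window, listed in RefSeq as Ccn2, held 3 and is shown because its gene had the highest ratio of the list, with the matches in capitals. It lies at chr1:22624615-22624864 on the minus strand (GRCr8).
Ctgf: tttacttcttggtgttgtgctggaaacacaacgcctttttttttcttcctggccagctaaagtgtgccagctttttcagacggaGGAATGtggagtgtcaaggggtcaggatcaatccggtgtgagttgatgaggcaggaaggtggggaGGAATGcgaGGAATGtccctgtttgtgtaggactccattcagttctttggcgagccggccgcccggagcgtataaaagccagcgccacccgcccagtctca

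Genes of the TGF-beta pathway mostly did not reach 2-fold. Of 26 pathway genes, 3 were higher by 2-fold or more and 4 lower, where 6.84% and 6.58% of all genes compared were, and the median was −0.22. The ligand gene Tgfb3 stood at 9.1 CPM on soft and 236 CPM on stiff matrix with A83-01, and at 11.8 and 393 CPM without it. The ratio with A83-01 was 25.7-fold higher (23.1 to 29.1). Tgfb2 was 5.51-fold higher (5.07 to 6.03) and Ltbp4, which tethers latent TGF-beta to the matrix, was 4.78-fold higher (4.21 to 5.52). The log2 ratios of the 3 genes were 4.69, 2.46 and 2.26 with the inhibitor and 5.05, 2.43 and 2.24 without. Tgfb1 lay slightly below equal levels (303 to 254 CPM, 1.19-fold lower, 1.16 to 1.23). The lower members were the microfibril-associated protein gene Ltbp2 (3.05-fold lower, 2.85 to 3.27), the activin subunits Inhba (2.51-fold lower) and Inhbb (2.45-fold lower), and Skil, a SMAD corepressor (2.16-fold lower). Of the receptors, Tgfbr1 stood at 20.3 CPM on soft and 17.6 CPM on stiff matrix, Tgfbr2 at 377 CPM on soft and 346 CPM on stiff matrix, and the endothelial type I receptor Acvrl1 at 77.6 CPM on soft and 117 CPM on stiff matrix (1.5-fold higher, 1.43 to 1.58).

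Among 16 genes known to respond to TGF-beta, 3 were at least 2-fold higher and 5 lower, with a median of −0.41 with A83-01 and 0.23 without. Thrombospondin, Thbs1, was 2.16-fold lower (2.1 to 2.23) with A83-01 and 1.13-fold higher (1.1 to 1.15) without, and the SMAD-interacting repressor Tgif1 was 2.14-fold lower. Some of the 16 count in other lists too, among them Ctgf (YAP and TAZ), Skil (TGF-beta pathway) and Thbs1 (fibrillar matrix). The inhibitory SMAD gene Smad7 stood at 10.9 CPM on soft and 7.13 CPM on stiff matrix, 1.52-fold lower (1.3 to 1.8). Tgfbi, a matrix protein named for its induction by TGF-beta, stood at 16.8 CPM on soft and 37.8 CPM on stiff matrix with A83-01, and at 34.8 and 591 CPM without it, and its ratio was 2.24-fold with and 16.9-fold without A83-01. Pmepa1, a feedback inhibitor of the pathway, was at 36.7 CPM on soft and 34.6 CPM on stiff matrix with A83-01, and at 162 and 324 CPM without it.

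BMPs signal through SMAD1, SMAD5 and SMAD9 and raise the ID genes. Of 18 BMP and ID genes, 3 were higher by 2-fold or more and 6 lower, and the median was −0.60. The antagonist Nog stood at 8.66 CPM on soft and 0.729 CPM on stiff matrix and was 11.1-fold lower (7.93 to 18.5). Of the ID genes, Id1 was 2.56-fold lower (2.33 to 2.84) and Id2 2.29-fold lower (2.05 to 2.57), while Id4 was 2.57-fold higher (2.27 to 2.93). Gdf10, a BMP-like ligand, was 3.68-fold lower (3.25 to 4.21) with A83-01. Without it Gdf10 had 458 and 0 counts, 133-fold lower against a floor of 3 counts (counting bound 107-fold). The ligand genes Bmp2 and Bmp4 were 2.72-fold higher (2.13 to 3.62) and 5.97-fold higher (3.13 to 25.6), the latter from 5 counts on soft matrix.

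Interstitial matrix genes did not share a direction. Of 30 fibrillar collagen, crosslinker and interstitial matrix genes, 2 were higher by 2-fold or more and 8 lower with A83-01. Without it, 9 were higher and 3 lower, where 4.71% and 8.23% of all genes compared were. The list's median was −0.46 with and 0.38 without the inhibitor. Col1a1, the main chain of collagen I, stood at 17577 CPM on soft and 19079 CPM on stiff matrix with A83-01, and at 39252 and 69475 CPM without it. The inhibitor libraries held less of it on both matrices, and their ratio was 1.09-fold against 1.77-fold without. Col3a1, of collagen III, stood at 7047 CPM on soft and 16688 CPM on stiff matrix with A83-01, and at 15996 and 52984 CPM without it, and was 2.37-fold higher (2.36 to 2.38) with A83-01. Col11a1, a minor fibrillar chain, was the other higher member, from 10 and 132 counts (10.6-fold higher, 6.54 to 26.5).

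Several genes for crosslinking and hydroxylating collagen were lower on stiff matrix. Lysyl oxidase, Lox, stood at 373 CPM on soft and 77.7 CPM on stiff matrix with A83-01, and at 754 and 467 CPM without it. It was 4.8-fold lower (4.61 to 5.01) with A83-01 and 1.61-fold lower (1.58 to 1.65) without. Its relative Loxl4 was 3.31-fold lower (2.89 to 3.85), the lysyl hydroxylase Plod1 was 2.18-fold lower (2.14 to 2.22) and the prolyl hydroxylase subunit P4ha2 was 2.24-fold lower (2.16 to 2.33). Loxl2, by contrast, was 1.67-fold higher (1.61 to 1.72) and did not reach 2-fold. Of the adhesive glycoproteins, fibronectin Fn1 stood at 6412 CPM on soft and 3771 CPM on stiff matrix with A83-01, and at 4273 and 5566 CPM without it, so that its ratio lay below 1 with the inhibitor and above 1 without. Periostin, Postn, showed the same pattern, at 293 CPM on soft and 183 CPM on stiff matrix with A83-01, and at 526 and 1243 CPM without it. Thbs2 was 3.18-fold lower (3.14 to 3.22) and osteopontin, Spp1, 6.64-fold lower (6.02 to 7.41). Tenascin-N, Tnn, stood at 1.13 CPM on soft and 1.12 CPM on stiff matrix with A83-01, and at 13.1 and 125 CPM without it, with 38 and 40 counts in the A83-01 libraries.

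Of 12 elastic fibre genes, 5 were higher and 3 lower, with a median of 0.79. Elastin, Eln, stood at 2.03 CPM on soft and 8.84 CPM on stiff matrix with A83-01, and at 1.08 and 66.3 CPM without it. It was 4.26-fold higher (3.34 to 5.75) with the inhibitor, and 58.2-fold higher (44.4 to 88.3) without. The fibrillin Fbn2 was 8.53-fold higher (5.83 to 15.5) from a low level (0.597 to 5.53 CPM) and the microfibril protein Mfap5 was 3.93-fold higher (3.53 to 4.41). Fibulin 2, Fbln2, stood at 9.79 CPM on soft and 17 CPM on stiff matrix with A83-01, and at 143 and 2096 CPM without it, a ratio of 1.73-fold against 14.7-fold. Emilin1 (4.12-fold lower, 3.97 to 4.28), Emilin2 (3.03-fold lower) and Efemp2 (2.12-fold lower), which serve elastic fibre assembly, were lower.

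Basement membrane genes, which vascular cells lay down together, mostly lay near equal levels. Of 16, 2 were at least 2-fold higher and 1 lower, against 6.84% and 6.58% of all genes compared, with a median of 0.18. The higher ones were Lama5, a laminin chain of mature vessels (86.5 to 225 CPM, 2.6-fold higher, 2.5 to 2.72), and Col18a1 (2.43-fold higher, 2.4 to 2.46), from which endostatin is cut. Collagen IV chains Col4a1 and Col4a2 were 1.38-fold higher and 1.44-fold higher. Among 13 small proteoglycan and hyaluronan genes, 3 were higher and 2 lower. Versican, Vcan, was 5.1-fold lower (5.00 to 5.2) and decorin, Dcn, which binds collagen fibrils and TGF-beta, stood at 21954 CPM on soft and 5279 CPM on stiff matrix with A83-01, and at 11520.2 and 1442 CPM without it. Fibromodulin, Fmod, was 12.9-fold higher (8.6 to 26.3), osteoglycin, Ogn, 6.03-fold higher (4.8 to 8.01) and Prelp 6.02-fold higher (4.84 to 7.9), all small proteoglycans at low levels.

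Proteases that cut matrix were among the lowest genes. Of 23 proteases and inhibitors, 6 were at least 2-fold lower and 5 higher, and 5 of the lower ones passed 4-fold. The gelatinase gene Mmp9 stood at 2454 CPM on soft and 263 CPM on stiff matrix with A83-01, and at 2322 and 513 CPM without it, 9.33-fold lower (9.14 to 9.54) with A83-01. The stromelysins Mmp3 and Mmp10 were 28.9-fold lower (24.6 to 35.5) and 34.2-fold lower (24.9 to 57.5), the collagenase Mmp13 13.5-fold lower (10.5 to 19.1) and the gelatinase Mmp2 3.00-fold lower (2.98 to 3.02). For Mmp3, Mmp9, Mmp10 and Mmp13 the ratio was farther from 1 with A83-01 than without, where log2 values were −3.44, −2.18, −3.26 and −1.43. The higher members were the urokinase gene Plau (4.06-fold higher, 3.69 to 4.5), Mmp23 (2.49-fold higher) and 3 protease inhibitors. These were Serpine2 (3.8-fold higher), Timp3 (2.57-fold higher) and Timp4 (10 and 51 counts, 4.18-fold higher, 2.41 to 10.6).

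Chemokine genes had the lowest median of any list, −2.48. Of 19 chemokines, 12 were at least 2-fold lower on stiff matrix with A83-01, against 6.58% of all genes compared, and 3 were higher. Cxcl6, which attracts neutrophils, stood at 117 CPM on soft and 0.926 CPM on stiff matrix with A83-01, and at 113 and 0.826 CPM without it. The A83-01 values rest on 3911 and 33 counts, and Cxcl6 was 119-fold lower (89.6 to 183). Both soft libraries were far above both stiff ones. Cxcl3 had 2011 and 9 counts (194-fold lower, 125 to 521), Cxcl2 had 492 and 11 counts and Cxcl1 had 3641 and 214 counts, all ligands of the same neutrophil receptor. The monocyte attractants Ccl2 and Ccl7 were 6.91-fold lower (6.63 to 7.21) and 6.57-fold lower (6.14 to 7.06). Ccl22, made mainly by myeloid cells, had 146 and 0 counts and was 51.8-fold lower against a floor of 3 counts (counting bound 41.6-fold). The 3 higher genes were Ccl21 (4 and 85 counts), Cxcl9 (14 and 92 counts) and Cxcl14 (38 to 81.6 CPM). Beside them, 11 of the 14 leukocyte markers in the table reached 1 CPM, with a median of −0.45. Of these, 4 were lower, 2 of them past 4-fold, and 1 was higher, also past 4-fold. The 11 summed to 185 CPM on soft and 116 CPM on stiff matrix. The general leukocyte marker Ptprc stood at 3.76 CPM on soft and 1.21 CPM on stiff matrix and the macrophage marker Adgre1 at 37.4 CPM on soft and 2.38 CPM on stiff matrix, while Cd3e and Cd79b of lymphocytes had 0 counts in both. Their part in the chemokine ratios was not tested.

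An NF-kB site was sought on both strands of the promoter windows. It matched 5 of the 14 chemokine promoters found (35.7%), those of Cxcl1, Cxcl2, Cxcl6, Cxcl10 and Ccl20, against 3.52% of all promoters. Of these 5 genes, 4 were at least 2-fold lower and Cxcl10 stood at 3.46 CPM on soft and 5.27 CPM on stiff matrix. A match also lay in 1 of 10 cytokine promoters, that of Il6. In the list of NF-kB subunits, feedback genes and leukocyte adhesion genes it lay in 9 of 15 promoters (60%), that of Vcam1 among them. The windows of 3 neutrophil chemokines are shown because each holds a match at a similar distance from the start, with first bases 84, 74 and 88 before it. Capitals mark the matched letters, which in each case cover matches that overlap by all but 1 base. Cxcl1 lies at chr14:17479322-17479571 on the minus strand, Cxcl2 at chr14:17467256-17467505 on the minus strand and Cxcl6 at chr14:17596418-17596667 on the minus strand (GRCr8).
Cxcl1: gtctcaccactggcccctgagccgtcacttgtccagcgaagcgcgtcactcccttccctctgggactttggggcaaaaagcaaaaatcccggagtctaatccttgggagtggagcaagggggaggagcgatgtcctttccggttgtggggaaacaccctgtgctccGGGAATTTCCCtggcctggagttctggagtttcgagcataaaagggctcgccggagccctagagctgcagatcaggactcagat
Cxcl2: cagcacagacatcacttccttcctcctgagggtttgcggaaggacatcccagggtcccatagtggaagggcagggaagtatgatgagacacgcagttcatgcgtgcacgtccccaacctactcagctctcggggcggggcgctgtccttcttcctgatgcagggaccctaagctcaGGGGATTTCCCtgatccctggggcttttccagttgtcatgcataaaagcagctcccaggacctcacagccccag
Cxcl6: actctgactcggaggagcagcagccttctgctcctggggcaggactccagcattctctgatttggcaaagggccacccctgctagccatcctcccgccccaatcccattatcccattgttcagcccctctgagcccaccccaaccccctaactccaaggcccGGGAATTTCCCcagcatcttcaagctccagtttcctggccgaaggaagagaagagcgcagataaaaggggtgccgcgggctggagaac

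Interleukins, colony-stimulating factors and prostaglandin enzymes followed, with 10 of 15 at least 2-fold lower, 2 higher and a median of −2.37. Csf3, the granulocyte growth factor, had 878 and 0 counts and was 311-fold lower against a floor of 3 counts (counting bound 253-fold). Il6 stood at 35.3 CPM on soft and 3.7 CPM on stiff matrix with A83-01, and at 43.6 and 6.78 CPM without it, 9.39-fold lower (7.95 to 11.5) with A83-01. Il1a, an interleukin 1 ligand, had 521 and 9 counts and Il1b had 193 and 4 counts. The prostaglandin synthases Ptgs2 and Ptges were 61.4-fold lower (46.1 to 95.7) and 9.72-fold lower (8.73 to 11). Lif, of the interleukin 6 family, was 27.7-fold lower (22 to 38). Higher members were Il34, a ligand of the macrophage receptor Csf1r (17 to 74.4 CPM, 4.38-fold higher, 4.01 to 4.82), and Il15 (2.45-fold higher), while Il33 stood at 115 CPM on soft and 215 CPM on stiff matrix.

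NF-kB subunits did not reach 2-fold, while several of their feedback genes were lower. Of 18 genes, which include the adhesion genes Icam1, Vcam1, Sele and Selp, 6 were at least 2-fold lower and 0 higher, with a median of −0.72. Nfkbia, which holds NF-kB in the cytoplasm, stood at 131 CPM on soft and 49.4 CPM on stiff matrix with A83-01, and at 106 and 33.9 CPM without it. The deubiquitinase Tnfaip3 was 3.23-fold lower (2.86 to 3.69), Nfkbiz 3.23-fold lower (2.99 to 3.51) and Birc3 3.32-fold lower (2.96 to 3.77). The endothelial selectins Sele and Selp were 12.6-fold lower (7.18 to 55.2) and 12.1-fold lower (6.64 to 67.3), with 82 and 5 counts and 67 and 4 counts. The subunit Rela stood at 124 CPM on soft and 134 CPM on stiff matrix, and Nfkb1 at 153 CPM on soft and 91.9 CPM on stiff matrix.

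Complement and secreted defence genes were lower in 10 of 17 cases and higher in 1, with a median of −1.40 with A83-01 and −3.27 without. Lipocalin 2, Lcn2, which withholds iron from bacteria, stood at 1491 CPM on soft and 19.2 CPM on stiff matrix with A83-01, and at 1205 and 4.3 CPM without it, 77.3-fold lower (71.9 to 83.8) with the inhibitor. The antiprotease Slpi stood at 477 CPM on soft and 6.56 CPM on stiff matrix with A83-01, and at 318 and 0.482 CPM without it. Complement C3, the central component, stood at 387 CPM on soft and 8.47 CPM on stiff matrix with A83-01, and at 696 and 1.14 CPM without it, 45.3-fold lower with A83-01 and 580.0-fold lower without. For all 3 genes the stiff library with A83-01 lay above the stiff library without it. The copper-binding protein gene Cp (4.93-fold lower, 4.77 to 5.09), the pentraxin Ptx3 (4.51-fold lower, 4.17 to 4.89) and factor B, Cfb (5.92-fold lower, 5.06 to 7.11), followed. The lipopolysaccharide-binding protein Lbp was the higher member, at 1.52 CPM on soft and 14.8 CPM on stiff matrix with A83-01, and at 4.18 and 151 CPM without it.

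Interferon-stimulated genes had a median of 0.27, with 2 of 17 at least 2-fold higher and 2 lower, against 6.84% and 6.58% of all genes compared. The antiviral GTPase Mx2 was 5.71-fold higher (3.77 to 10.8) and the membrane tether Bst2 2.24-fold higher (2.03 to 2.5). Oasl (6.27-fold lower, 4.81 to 8.9) and the deconjugase Usp18 (3.62-fold lower, 2.83 to 4.87) were lower. Irf1, an interferon regulatory factor, stood at 25.2 CPM on soft and 48.3 CPM on stiff matrix. Among 17 metal and redox genes, 5 were at least 2-fold lower and 0 higher. The metallothioneins Mt1 and Mt2A were 9.41-fold lower (8.62 to 10.4) and 8.74-fold lower (8.36 to 9.16), the mitochondrial superoxide dismutase Sod2 5.9-fold lower (5.72 to 6.1), the haem oxygenase Hmox1 5.28-fold lower (5.1 to 5.46) and the NADPH oxidase Nox1 6.76-fold lower (5.19 to 9.62).

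**Figure D3:**
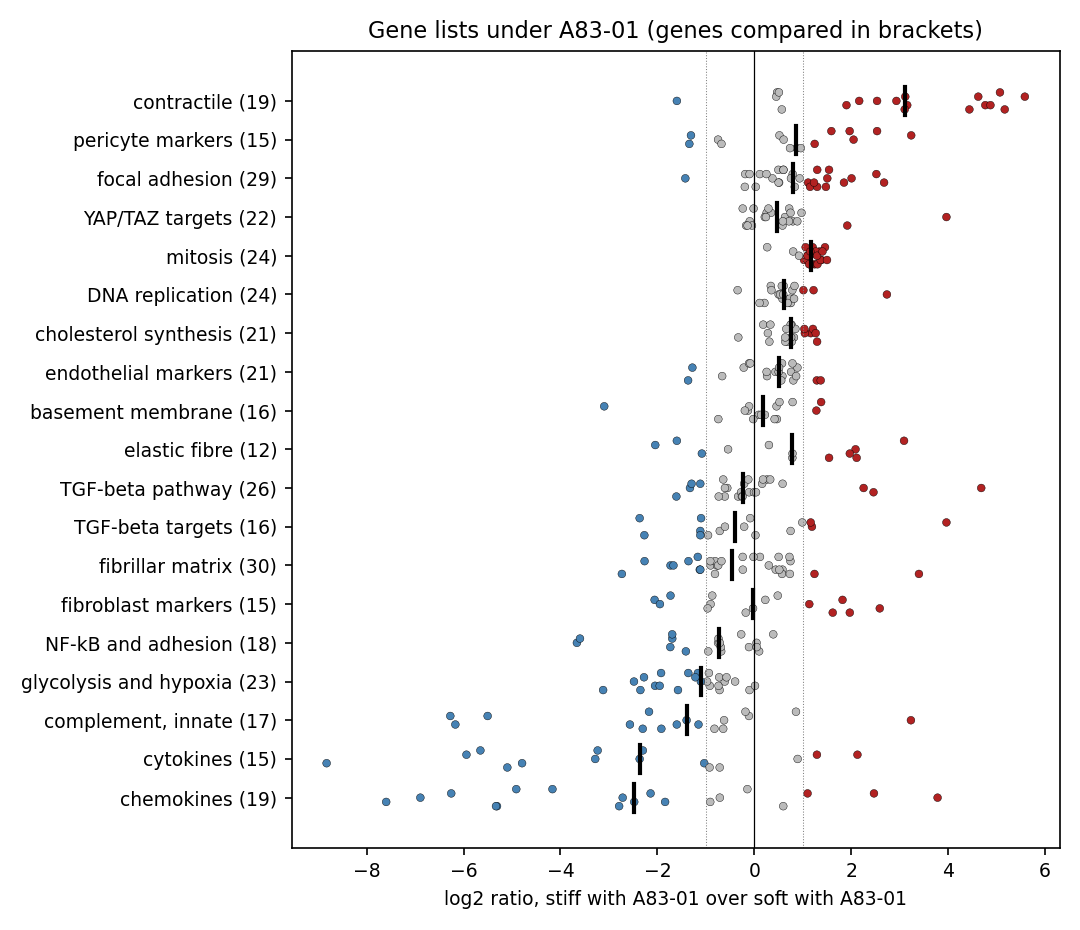
Each point is a gene of 1 of 19 lists, placed by its log2 ratio of stiff to soft with A83-01, with the list's median as a black bar, dotted lines at 2-fold, red for genes at least 2-fold higher and blue for lower. Contractile genes (median 3.11) lie at the right, the 24 mitosis genes sit close together near 1.17, and chemokines (−2.48) and cytokines (−2.37) lie at the left.

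Genes of cell division were higher on stiff matrix when A83-01 was present. Of 24 mitosis genes, 21 were higher by 2-fold or more and 0 lower, with a median of 1.17. Without the inhibitor 0 of them passed 2-fold in either direction, though 21 of the 24 lay above equal levels, and the median was 0.33. Mki67, the proliferation antigen, stood at 133 CPM on soft and 345 CPM on stiff matrix with A83-01, and at 85.7 and 132 CPM without it. The stiff library with A83-01 held the highest level of the 4, and Mki67 was 2.59-fold higher (2.5 to 2.68) with and 1.54-fold higher (1.46 to 1.61) without the inhibitor. The spindle protein Tpx2 was 2.83-fold higher (2.68 to 3.00), the midzone protein Prc1 2.75-fold higher (2.6 to 2.92) and the ubiquitin enzyme Ube2c 2.66-fold higher (2.48 to 2.86). Cyclins Ccna2 and Ccnb1 were 2.61-fold higher (2.41 to 2.83) and 2.22-fold higher (2.03 to 2.43), and their kinase Cdk1 was 2.22-fold higher (2.08 to 2.38). Birc5 (1.75-fold higher), Cdc25c (1.2-fold higher) and Ttk (1.9-fold higher) did not reach 2-fold.

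Of 24 DNA replication genes, 23 lay above equal levels, 3 were at least 2-fold higher and 0 lower, with a median of 0.62. Cdc45, a part of the replicative helicase, stood at 7.52 CPM on soft and 50.5 CPM on stiff matrix with A83-01, and at 7.83 and 15.2 CPM without it, 6.67-fold higher (5.89 to 7.7) with A83-01. Its partner Mcm5 was 2.02-fold higher (1.84 to 2.22) and Uhrf1, which maintains DNA methylation, 2.34-fold higher (2.08 to 2.65). Among 19 brakes of the cell cycle, D cyclins and p53 targets, 3 were higher and 1 lower. The lower one was the CDK inhibitor Cdkn1a, at 106 CPM on soft and 50.8 CPM on stiff matrix with A83-01, and at 106 and 123 CPM without it, 2.09-fold lower (1.97 to 2.21) with A83-01. Cyclin D2, Ccnd2, was 3.38-fold higher (3.04 to 3.8), and the CDK inhibitor Cdkn1c was 2.54-fold higher (1.85 to 3.71).

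The letters TTTGAA, the core of the element through which the DREAM complex holds cell cycle genes silent, were found on either strand in 9 of 20 mitosis promoters (45%). They occurred in 16.0% of all promoters and in 10.0% of the promoters of genes compared here. The windows of Mki67 and Cdk1 are shown as examples that hold 2 matches each, in capitals. That of Anln also holds 2 and is not shown. Mki67 lies at chr1:199952594-199952843 on the minus strand and Cdk1 at chr20:19265043-19265292 on the plus strand (GRCr8).
Mki67: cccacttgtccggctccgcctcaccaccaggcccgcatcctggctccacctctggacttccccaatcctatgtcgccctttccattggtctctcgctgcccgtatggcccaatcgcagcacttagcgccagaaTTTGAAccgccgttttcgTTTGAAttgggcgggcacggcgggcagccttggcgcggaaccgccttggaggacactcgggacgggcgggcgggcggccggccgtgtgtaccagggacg
Cdk1: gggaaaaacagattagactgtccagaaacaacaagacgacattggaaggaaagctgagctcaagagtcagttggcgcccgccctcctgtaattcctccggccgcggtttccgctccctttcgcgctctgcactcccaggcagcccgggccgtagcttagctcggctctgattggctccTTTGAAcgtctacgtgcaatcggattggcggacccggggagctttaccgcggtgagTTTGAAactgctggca

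Cholesterol synthesis genes were higher, with 20 of 21 above equal levels, 6 at least 2-fold higher, 0 lower and a median of 0.76. Without A83-01 the median was 1.03. Msmo1, a sterol oxidase, stood at 47.7 CPM on soft and 115 CPM on stiff matrix with A83-01, and at 39.1 and 111 CPM without it, 2.41-fold higher (2.28 to 2.56) with the inhibitor. The thiolase Acat2 was 2.46-fold higher (2.23 to 2.73), and Dhcr7, a reductase late in the pathway, was 2.32-fold higher (2.16 to 2.49).

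Glycolysis and hypoxia-induced genes were lower, with 22 of 23 below equal levels, 12 at least 2-fold lower, 0 higher and a median of −1.10. Without A83-01 the median was −0.78, and 7 were at least 2-fold lower. Vegfa, the main growth factor of endothelial cells, stood at 282 CPM on soft and 50.4 CPM on stiff matrix with A83-01, and at 336 and 159 CPM without it. It was 5.59-fold lower (5.32 to 5.89) with and 2.12-fold lower (2.05 to 2.2) without the inhibitor. The prolyl hydroxylase Egln3, which tags HIF for destruction, was 8.69-fold lower (7.85 to 9.73), and the mitophagy receptor Bnip3 4.84-fold lower (4.61 to 5.09). Glucose entry and use followed: the transporter Slc2a1 was 3.87-fold lower (3.67 to 4.09), hexokinase Hk2 4.13-fold lower (3.79 to 4.53), phosphofructokinase Pfkl 2.98-fold lower (2.88 to 3.08) and the lactate exporter Slc16a3 5.1-fold lower (4.87 to 5.35). The abundant enzymes Gapdh (2999 CPM on soft and 1967 CPM on stiff matrix) and Ldha (929 CPM on soft and 473 CPM on stiff matrix) did not reach 2-fold.

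Among 19 VEGF and angiopoietin genes, 5 were at least 2-fold lower and 1, Angptl2 (2.03-fold higher), higher. Besides Vegfa, the lower ones were Angptl4 (4.95-fold lower, 4.74 to 5.18), the lymphatic factor Vegfd (3.19-fold lower, 3.08 to 3.31), Angpt1 (2.6-fold lower, 2.31 to 2.95), which pericytes supply to the endothelial receptor Tek, and the tip cell product Esm1 (2.22-fold lower, 2.01 to 2.47). Tek itself stood at 12.4 CPM on soft and 23 CPM on stiff matrix with A83-01, and at 8.9 and 8.67 CPM without it, and its relative Tie1 at 259 CPM on soft and 447 CPM on stiff matrix with A83-01, and at 235 and 238 CPM without it. Neither reached 2-fold, at 1.86-fold higher (1.65 to 2.1) and 1.73-fold higher (1.68 to 1.77). The VEGF receptor Kdr was 1.58-fold lower (1.53 to 1.64).

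In the PDGF family, through which endothelial cells recruit pericytes, 1 of 7 genes was higher and 1 lower, against 6.84% and 6.58% of all genes. Pdgfb stood at 165 CPM on soft and 164 CPM on stiff matrix with A83-01 and its receptor Pdgfrb at 881 CPM on soft and 1469.5 CPM on stiff matrix, 1.67-fold higher (1.65 to 1.69). Pdgfra, the receptor of fibroblasts, was 3.85-fold lower (3.76 to 3.95). Of 15 Notch genes, 3 were higher and 1 lower. Notch3, the receptor of mural cells, stood at 345 CPM on soft and 1039 CPM on stiff matrix with A83-01, and at 365 and 498 CPM without it, so that the stiff library with A83-01 was the highest of the 4. It was 3.02-fold higher (2.95 to 3.08) with and 1.37-fold higher (1.33 to 1.4) without the inhibitor. Its ligand Jag1 was 2.07-fold higher (1.93 to 2.22), the target Hes1 2.05-fold higher (1.91 to 2.21) and the target Heyl 1.95-fold higher (1.83 to 2.07), while the ligand Dll1 was 2.37-fold lower (1.75 to 3.38).

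Other growth factors were lower in 9 of 25 cases and higher in 4. Hgf (3.48-fold lower, 2.92 to 4.25), Fgf7 (2.71-fold lower, 2.56 to 2.87) and Fgf10 (4.19-fold lower, 3.67 to 4.86), which mesenchymal cells make for epithelium and endothelium, were lower. The endothelin receptor Ednrb was 6.25-fold lower (5.83 to 6.74). Igfbp5, which binds insulin-like growth factors, stood at 337 CPM on soft and 1225 CPM on stiff matrix with A83-01, and at 245 and 91.3 CPM without it. The stiff library was the higher one with A83-01 (3.63-fold higher, 3.56 to 3.71) and the lower one without it (2.68-fold lower, 2.57 to 2.81). Igf1 was 2.65-fold higher (2.35 to 3.01) and Igfbp6 3.54-fold higher (3.19 to 3.96).

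Markers of the cell types that such a preparation could hold were counted next. Of 21 endothelial markers, 2 were at least 2-fold higher and 2 lower, against 6.84% and 6.58% of all genes compared. Above equal levels lay 15 of them, and the summed level was 2836 CPM on soft and 3989 CPM on stiff matrix with A83-01. VE-cadherin, Cdh5, stood at 886 CPM on soft and 1325 CPM on stiff matrix with A83-01, and at 869.6 and 729.6 CPM without it, 1.5-fold higher (1.47 to 1.52) with the inhibitor. The artery-associated factor Sox17 was 2.59-fold higher (2.33 to 2.89) and the water channel Aqp1 2.45-fold higher (2.38 to 2.52), while von Willebrand factor, Vwf, was 2.58-fold lower (2.36 to 2.83) and Plvap, of fenestrae, 2.42-fold lower (2.23 to 2.64). Without A83-01 the sum went the other way, from 2771 to 2407 CPM. The list's median log2 ratio was 0.51 with and −0.19 without the inhibitor.

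The pericyte and mural markers, counted above, were led by Rgs5, a regulator of G-protein signalling in pericytes, which stood at 23.2 CPM on soft and 219.7 CPM on stiff matrix with A83-01, and at 21.9 and 83.4 CPM without it. It was 9.45-fold higher (8.8 to 10.2) with A83-01 and 3.8-fold higher (3.51 to 4.15) without. Rgs4 was 4.14-fold higher (3.84 to 4.49), the desmin gene Des 5.8-fold higher (5.59 to 6.02) and the channel subunit Kcnj8 2.37-fold higher (2.23 to 2.53). The proteoglycan NG2, Cspg4, stood at 54.9 CPM on soft and 78.7 CPM on stiff matrix (1.43-fold higher, 1.35 to 1.52). The aminopeptidase Anpep, the most counted member, was 2.53-fold lower (2.5 to 2.56). Des is also in the contractile list, and Notch3 and Heyl in the Notch list. 

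Fibroblast markers were higher in 5 and lower in 3 of 15 cases, and their sum, mostly Dcn, was 26314 CPM on soft and 9341 CPM on stiff matrix. Pdgfra and the dipeptidase Dpep1 (3.31-fold lower, 3.03 to 3.64) were lower, while Cd34 (3.07-fold higher, 2.97 to 3.19) and Gsn (2.2-fold higher, 2.13 to 2.27) were higher. Of 12 adipocyte markers measured, 9 were compared, 5 were lower and 1 higher, and the sum was 1139 and 894 CPM. The lipid droplet protein Plin1 had 156 and 10 counts and the leptin gene Lep 0 in both. Pparg, the regulator of fat cell formation, was 2.25-fold higher (1.97 to 2.59). Of 6 lymphatic markers, 4 were compared, 0 were at least 2-fold higher and 1 lower, and 3 lay above equal levels, with a median of 0.23. The lower one was Pdpn (3.76-fold lower, 3.63 to 3.9), and the defining Prox1 stayed below 1 CPM in both libraries. Schwann cell and nerve markers were higher in 3 of 8 cases and lower in 0, with sums of 121 and 210.2 CPM, and their defining factor Sox10 stood at 0.985 CPM on soft and 2.86 CPM on stiff matrix. Skeletal muscle markers summed to 4.89 and 5.08 CPM. Of the keratinocyte markers, Krt5, Krt14, Cdh1 and Epcam had 0 counts in both.

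The largest ratios belonged to genes of several kinds. Ranked by the interval bound nearer to 1, the highest was Cntn2, a neural adhesion molecule, with 23 and 2288 counts (86.3-fold higher, 62.2 to 148). Pmfbp1, Olr63, Olfml1, Cdh20 and Vsnl1 followed from few counts on soft matrix, with stiff levels of 23.1, 18.9, 17.8, 8.44 and 2.75 CPM. Tinagl1, a basement membrane protein, stood at 12.7 CPM on soft and 392 CPM on stiff matrix with A83-01, and at 10.9 and 353 CPM without it, 30.7-fold higher (28 to 34) with A83-01. RT1-CE16 and Dhrs7l1 had 0 and 184 counts and 0 and 145 counts, and 0 counts in both libraries without A83-01. The MHC class I genes, RT1-CE16 among them, have near-identical copies, which makes its count uncertain. At the other end, besides the chemokines, cytokines and proteases above, Acod1, which makes itaconate in activated macrophages, had 353 and 7 counts. LOC24906 had 138 and 0 counts, 48.9-fold lower against a floor of 3 counts (counting bound 39.3-fold).

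How the stiffness ratio with A83-01 compares with that without was asked gene by gene, between pairs that share no library. Without A83-01, 629 of the same 13356 genes (4.71%) passed 2-fold higher and 1099 (8.23%) passed 2-fold lower. Higher in both pairs were 355 genes, 38.9% of the genes higher with the inhibitor and 56.4% of those higher without. Lower in both were 581, 66.1% and 52.9% of the corresponding lists. Of the 913 genes higher with A83-01, 558 were not past 2-fold without it, and 406 of these still lay above equal levels. Of the 879 lower, 298 were not past 2-fold without it, and 230 of them lay below equal levels. The ratio was at least 2-fold larger with A83-01 in 820 genes (6.14%) and at least 2-fold smaller in 369 (2.76%), with counting intervals excluding equal ratios. These counts depend on the scaling. Under total counts the split was 1450 larger and 211 smaller, and the median difference over the genes compared moved from 0.02 to 0.30 on the log2 scale. The TMM factor of the stiff library without A83-01 was 0.876, and those of the other 3 were 1.03 to 1.07. With 1 library in each of the 4 groups, the difference could not be tested.

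**Figure D4:**
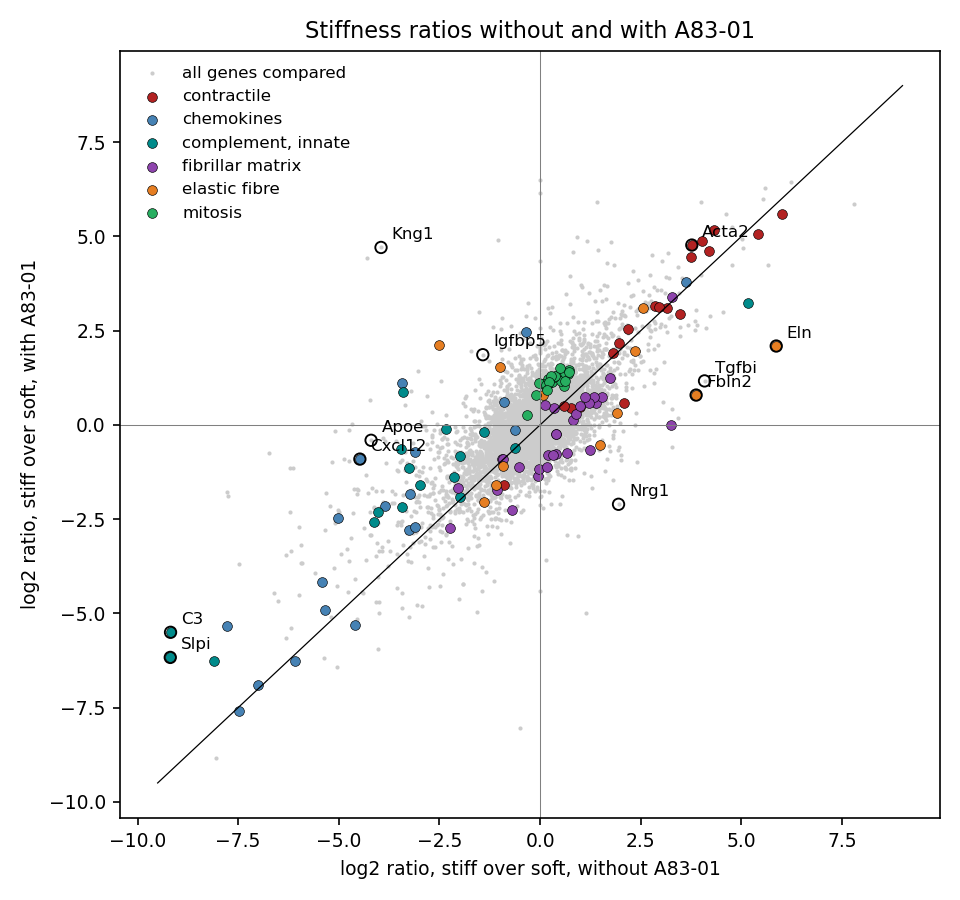
Each point is a gene, with its log2 ratio of stiff to soft without A83-01 on the x axis and with A83-01 on the y axis, and a line where both are equal, with 6 gene lists in colour and rings around labelled genes. Contractile genes lie near the line at the upper right, innate genes such as C3 and Slpi lie above it at the lower left, and Eln, Fbln2 and Tgfbi lie below it at the right.

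Group by group, the contractile list had a median difference of 0.09 on the log2 scale, with 1 ratio at least 2-fold larger with A83-01 and 1 smaller. Under total counts the median was 0.36, with 3 larger and 1 smaller, and under pairwise TMM and DESeq2 scaling 0 were larger. Fibrillar matrix genes had smaller ratios with A83-01, in 10 of 30 genes by at least 2-fold against 0 larger, or in 6 under total counts, and 24 of the 30 differences lay below 0 under both scalings. Complement and innate genes mostly had larger ratios with A83-01. Of 17, 13 were at least 2-fold larger and 1 smaller (background 6.14% and 2.76% under TMM), and 14 and 1 under total counts. The smaller one was Lbp, with a ratio above 1 in both pairs, while C4b went from below 1 to above it. Among chemokines 9 of 19 were larger and 0 smaller, and among interferon-stimulated genes 9 of 17 and 0. All 24 mitosis differences lay above 0 under both scalings, with 5 at least 2-fold larger under TMM and 18 under total counts. Over the same 13356 genes, 7003 differences lay above 0 under TMM and 10430 under total counts. Under total counts 1434 of them were at least 2-fold larger and 209 smaller (the 1450 and 211 above were counted over 13412 genes). For cholesterol synthesis the median difference was −0.26 under TMM and 0.01 under total counts, so its sign depends on the scaling.

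For some genes, levels that were far lower on stiff matrix without the inhibitor differed less with it. Apoe, the lipid carrier, stood at 6029 CPM on soft and 4540.0 CPM on stiff matrix with A83-01, and at 5427 and 295 CPM without it. With A83-01 it was 1.33-fold lower (1.32 to 1.34), and without it 18.4-fold lower (18 to 18.8). Cxcl12, the stromal chemokine that binds Cxcr4, stood at 1249 CPM on soft and 665 CPM on stiff matrix with A83-01, and at 915 and 41 CPM without it. Its log2 ratios were −0.91 with and −4.48 without, a difference of 3.57 (3.48 to 3.66) with its counting interval. Sectm1b, a secreted and membrane protein, stood at 345 CPM on soft and 207 CPM on stiff matrix with A83-01, and at 97.7 and 0.860 CPM without it. In each of these 3 genes the stiff library without A83-01 was far below the other 3. Myo7b, an unconventional myosin, and Cyp39a1, an oxysterol hydroxylase, had 495 and 4 counts and 141 and 3 counts without the inhibitor and 1604 and 773 counts and 124 and 135 counts with it. The complement genes C4a and C4b, near-identical copies whose reads may be shared, differed by 4.11 and 4.26 on the log2 scale. C4b was 1.82-fold higher (1.71 to 1.94) on stiff matrix with A83-01 and 10.5-fold lower (8.51 to 13.8) without it.

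The ratio was smaller with A83-01 in another set of genes. Besides Eln, Fbln2, Tgfbi and Tnn above, Wisp1, a matricellular protein induced by Wnt signalling, stood at 12 CPM on soft and 7.46 CPM on stiff matrix with A83-01, and at 35.7 and 136 CPM without it. Stiff matrix was the lower side with A83-01 (1.6-fold lower, 1.37 to 1.88) and the higher side without (3.81-fold higher, 3.58 to 4.07). Cmklr1, the chemerin receptor, stood at 7.16 CPM on soft and 3.7 CPM on stiff matrix with A83-01, and at 14.8 and 59.3 CPM without it, and Slitrk6, a neuronal membrane protein, at 3.94 CPM on soft and 1.96 CPM on stiff matrix with A83-01, and at 1.85 and 10.1 CPM without it. Cobl, an actin nucleator, had 78 and 55 counts with A83-01 and 30 and 269 counts without. Cst7, a cystatin of immune cells, had 101 and 12 counts and 71 and 119 counts. In all 5 genes the stiff library without A83-01 held the highest level of the 4.

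**Figure D5:**
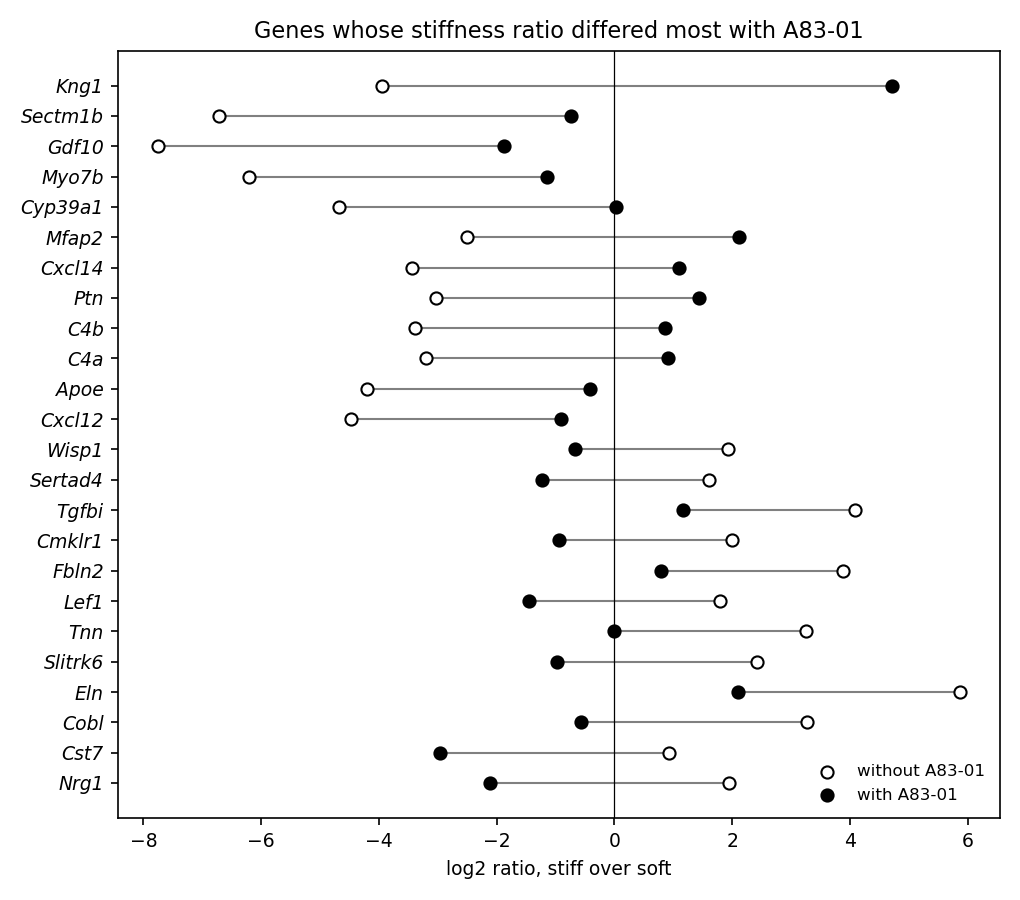
Log2 ratio of stiff to soft for the 12 genes whose ratio was most above and the 12 most below with A83-01 (filled) relative to without it (open), ranked by the bound of the counting interval nearer to 0. Apoe goes from −4.20 without to −0.41 with A83-01 and Eln from 5.86 to 2.09, while the open symbols of Kng1 and Gdf10 rest on 0 counts in the stiff library and depend on the 2 counts added.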

How the data were processed

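RNA of 4 libraries, 1 per group, was sequenced after selection on oligo(dT) beads, per the labels' protocols. The authors deposited a whole-number count per gene, not normalised, and a table of FPKM values, the counts scaled by length and library size. Per the submitters' processing notes, the tools were HISAT2 and edgeR and the build Rnor_6.0. The counting tool, annotation, versions and any use of strand are not stated there. Total counts were 32271844 and 33416200 (soft and stiff with A83-01) and 32475473 and 33178552 (soft and stiff without).

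CPM were counts divided by total and TMM factor over all 4 libraries (edgeR 4.0.16, R 4.3.3; factors 1.04, 1.07, 1.03 and 0.876 in the same order). Genes with at least 1 CPM in either A83-01 library were compared. Ratios used a prior count of 2, and a gene was counted when its ratio passed 2-fold (or 4-fold) and its 95% interval excluded 1. Against 0 counts the ratio was taken to 3 counts, which is 0.0895 CPM (soft) and 0.0842 CPM (stiff) with A83-01. Such a ratio is no lower limit, and the counting bound beside it is the end of the 95% interval nearer to 1. Differences of log2 ratios had delta-method counting intervals. No test was run. The calculation was tested on simulated data.

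The comparison, its measures and 39 gene lists (707 genes) were chosen with earlier results of these data known. Named were the 15 highest and lowest ratios, up to 4 each way in each list by the bound nearer to 1 with a set of defining genes, the 12 largest and smallest differences, and up to 8 genes each way with opposite directions. Further list members named for context were chosen after their values were seen. Some members of the lists count in the totals and are not reported here by name. Alternatives were total-count, pairwise TMM and DESeq2 1.42.0 scaling, other minimums and prior count, FPKM ratios, fold alone and symbol entries only.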

Additional observations from a re-analysis of the deposited data

Results flagged for a closer look

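Genes were singled out here when stiff matrix was at least 2-fold higher with A83-01 and at least 2-fold lower without it, or the reverse. There were 13 entries of the first kind, 10 of them with a symbol, and 7 of the second, 6 with a symbol. Of those with a symbol, up to 8 of each kind are named. The difference between both ratios was not tested, since each rests on 1 library a side. Differences are log2 ratios with A83-01 minus those without, with counting intervals in brackets.

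Among genes higher on stiff matrix with A83-01 and lower without, Kng1, the kininogen gene, had 17 and 524 counts with it, 26.1-fold higher (17.9 to 50.1). Without it Kng1 had 31 and 0 counts, 8.97-fold lower against a floor of 3 counts. Its difference of 8.66 depends on the 2 counts added to the library at 0 and is no bound. The microfibril gene Mfap2 differed by 4.63 (3.75 to 5.50), from 0.746 to 3.42 CPM with and 4.42 to 0.722 CPM without. Igfbp5 differed by 3.29 (3.22 to 3.36). The heparin-binding growth factor Ptn went from 49.96 to 135 CPM with and 57.6 to 6.98 CPM without, a difference of 4.46 (4.24 to 4.69). The chemokine Cxcl14 differed by 4.53 (4.25 to 4.81), from 38 to 81.6 CPM with and 46.7 to 4.27 CPM without. The metalloreductase Steap4, a pericyte marker, differed by 3.69 (3.25 to 4.14), from 11.9 to 46.9 CPM with and 6.51 to 1.93 CPM without. The galectin Lgals9 differed by 3.76 (3.33 to 4.18) and the receptor partner Ramp3 by 2.54 (2.25 to 2.84).

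Of genes lower with and higher without, the neuregulin gene Nrg1 went from 1.64 to 0.337 CPM with and 2.03 to 8.02 CPM without, a difference of −4.05 (−4.98 to −3.13). Lef1, a Wnt effector, differed by −3.26 (−3.96 to −2.56), from 2.18 to 0.757 CPM with and 2.87 to 10.1 CPM without. Sertad4 differed by −2.84 (−3.16 to −2.53), Myrf by −2.36 (−2.68 to −2.05), the transcription factor Bcl11b by −2.95 (−3.89 to −2.02) and LOC100910708 by −2.62 (−3.33 to −1.91). Nrg1, Lef1 and Bcl11b rest on fewer than 100 counts in each A83-01 library.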

How the results depend on the processing

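Of 52 recomputed counts, 42 stayed within 1.5 times the reported one. Total-count scaling gave 1450 genes with a larger and 211 with a smaller ratio with A83-01. With no expression minimum, 437 genes passed 4-fold higher and 509 passed 4-fold lower. A minimum of 5 CPM, which leaves fewer genes, gave 607 higher and 540 lower at 2-fold, 147 and 160 at 4-fold, and 493 larger and 218 smaller ratios. Of 2616 recomputed log2 ratios of 295 named genes, 2508 stayed within the counting interval, 108 moved and 0 changed the sign of a gene past 2-fold. The other minimums, fold alone and symbol entries only leave a gene's own ratio as it was, so those values stayed by construction. Genes with 0 counts in an A83-01 library, whose interval has no finite width, were also counted as stayed. Of 349 list medians, 332 stayed, among them those under fold alone and symbol entries only, which cannot change a list median. The median of the mesenchymal regulators changed sign (−0.06 with TMM over the A83-01 pair and with a minimum of 5 CPM, −0.12 without a minimum). That of the keratinocyte markers went to 0.78 without a minimum, since only 1 gene passed 1 CPM. No paired analysis was possible because each group holds 1 library, and leaving a library out leaves no comparison. Under 10 CPM the counting interval spans a median of 1.72-fold.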

Other observations

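Wnt pathway genes, regulators of mesenchymal state and stress genes were counted in the same way. With A83-01, 7 of 20 Wnt genes compared passed 2-fold higher and 4 passed 2-fold lower, against 6.84% and 6.58% of all genes. The feedback inhibitor Nkd1 stood at 5.37 CPM on soft and 22.9 CPM on stiff matrix with A83-01, and at 9.2 and 36.2 CPM without it. With A83-01 it was 4.24-fold higher (3.63 to 5.05). Its relative Nkd2 was 2.71-fold higher (2.51 to 2.94). The secreted antagonist Sfrp2 was 3.68-fold lower (3.5 to 3.87) and the receptor Fzd1 2.4-fold lower (2.32 to 2.48). Sfrp1 stood at 136 CPM on soft and 134 CPM on stiff matrix with A83-01, and at 291 and 39.9 CPM without it. Among 14 mesenchymal regulators, Snai2 was 2.25-fold higher (2.08 to 2.45) and Foxs1 2.57-fold higher (2.33 to 2.86), and Twist2 was 3.44-fold lower (3.26 to 3.63) and N-cadherin, Cdh2, 2.84-fold lower (2.72 to 2.98).

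Of 18 immediate early genes, 2 were higher and 2 lower, against 6.84% and 6.58% of all genes compared. The AP-1 gene Fosl1 was 7.57-fold lower (6.51 to 9.05) and the nuclear receptor Nr4a1 5.97-fold lower (5.67 to 6.3), while Fos was 2.5-fold higher (2.22 to 2.83) and the phosphatase Dusp1 2.02-fold higher (1.92 to 2.12). Of 22 genes for folding in the endoplasmic reticulum, 0 were at least 2-fold higher and 1 lower, Chac1, at 28.6 CPM on soft and 13 CPM on stiff matrix with A83-01, and at 29.3 and 45.1 CPM without it. Trib3, another gene of the integrated stress response, stood at 10.8 CPM on soft and 9.65 CPM on stiff matrix with A83-01, and at 28.8 and 104 CPM without it, and the collagen chaperone Serpinh1 at 2312 CPM on soft and 3351 CPM on stiff matrix with A83-01, and at 3326 and 5975 CPM without it.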
